A study of Mus musculus with 16 samples.

Results

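The cell cycle and DNA replication genes of the mouse left ventricle are a set of 38 named genes, from the cyclins and kinases of mitosis to the helicase subunits that license DNA for copying. They were found by matching the platform's gene symbols on an Illumina BeadChip, and the probe with the highest mean over all 16 arrays stood for each gene. Of the 38 genes, 34 had a probe, among 16593 genes with a probe in all. The levels of Aurkb, Ccnb1, Mki67 and Tacc3 are not analysed here. RNA came from the left ventricle of male C57BL6 mice assigned at random to 4 groups at an age of 12 weeks, with 4 arrays for each group. The control group had neither agent. The L-NAME group received the nitric oxide synthase inhibitor L-NAME at 0.3 mg/ml, together with 1% NaCl, in its water for 5 weeks. The AngII group received the pressor peptide angiotensin II at 0.7 mg/kg/day for 4 weeks from a micro-osmotic pump under the skin. The combination group received both agents, which the series uses to induce heart failure. Neither salt nor a pump without peptide is mentioned for the control mice, nor salt for the AngII mice, so effects of L-NAME and of salt cannot be told apart. The labels do not state that each array is a separate mouse, so the spread that p-values measure may be technical.

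Cells that divide pass through a fixed order of steps. D-type and E-type cyclins carry a cell out of G1, the licensing factors Cdt1 and the Mcm2 to Mcm7 helicase prepare origins of replication, nucleotide-making enzymes feed the fork, and cyclin A, cyclin B and Cdk1 then drive mitosis, which the spindle checkpoint and the chromosomal passenger proteins control. Heart muscle cells of adult mice have largely left the cell cycle, so most division in the adult ventricle is attributed to the other cell types of the tissue, such as fibroblasts, endothelial cells and macrophages. In tissue RNA, fewer cells of a type and less RNA per cell cannot be told apart.

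Many of these genes share promoter elements. The CCAAT box is bound by NF-Y, the cell cycle genes homology region (CHR) by the DREAM and MuvB complexes, and the E2F motif by E2F factors. RefSeq promoters (GRCm38.p6), each 250 bases before to 50 after a gene's start, were found for 32 of the 38 genes and searched on both strands for CCAAT, for TTTGAA (CHR), and for the E2F motif as TTTCCCGC, TTTCGCGC, TTTGCCGC or TTTGGCGC, where overlapping matches on opposite strands counted separately. Only the first promoter listed for each gene symbol was used, and symbols with no probe here were included in the comparison. CCAAT was present in 78.1% of the 32 promoters against 37.9% of 27025 promoters, 1 for each symbol. TTTGAA was present in 50% against 18.1%, and an E2F motif in 18.8% against 2.32%. The mitotic and the replication genes differed in which element they held. Of 20 promoters of mitotic genes, 15 (75.0%) held TTTGAA and 1 (5.0%) an E2F motif. Of 12 promoters of replication and G1 genes, 1 (8.33%) held TTTGAA and 5 (41.7%) an E2F motif. The upstream 250 bases are given for a mitotic gene with many CCAAT and CHR matches (Top2a), for a mitotic gene that was detected on every array (Cdc20), and for a licensing gene with E2F motifs (Mcm6). Capitals mark a match on either strand, so that CCAAT also appears as ATTGG and TTTGAA as TTCAAA. Each runs 5′ to 3′ on the gene's strand, the minus strand in all 3, from chr11:99024190-99024439 for Top2a, chr4:118437344-118437593 for Cdc20 and chr1:128359706-128359955 for Mcm6.
Top2a: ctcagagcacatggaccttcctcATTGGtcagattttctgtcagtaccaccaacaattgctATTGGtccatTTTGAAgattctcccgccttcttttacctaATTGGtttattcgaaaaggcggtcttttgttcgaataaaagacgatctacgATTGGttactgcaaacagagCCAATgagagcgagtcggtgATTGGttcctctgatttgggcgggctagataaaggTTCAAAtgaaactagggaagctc
Cdc20: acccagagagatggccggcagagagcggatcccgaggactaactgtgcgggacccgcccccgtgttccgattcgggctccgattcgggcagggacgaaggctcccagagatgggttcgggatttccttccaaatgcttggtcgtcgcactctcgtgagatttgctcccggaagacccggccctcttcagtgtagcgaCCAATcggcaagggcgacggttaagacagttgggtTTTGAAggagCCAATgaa
Mcm6: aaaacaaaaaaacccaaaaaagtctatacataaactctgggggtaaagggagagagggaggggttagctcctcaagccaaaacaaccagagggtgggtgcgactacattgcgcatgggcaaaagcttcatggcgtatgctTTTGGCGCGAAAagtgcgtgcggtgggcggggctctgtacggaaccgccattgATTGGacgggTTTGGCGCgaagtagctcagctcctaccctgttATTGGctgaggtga
The Top2a stretch holds 6 CCAAT boxes and 2 CHR matches, and the Cdc20 stretch 2 CCAAT boxes and 1 CHR match. The Mcm6 stretch holds 2 CCAAT boxes and 3 E2F matches, 2 of which overlap on opposite strands, and no TTTGAA. A match of letters is a description and not a binding site.

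**Figure D1:**
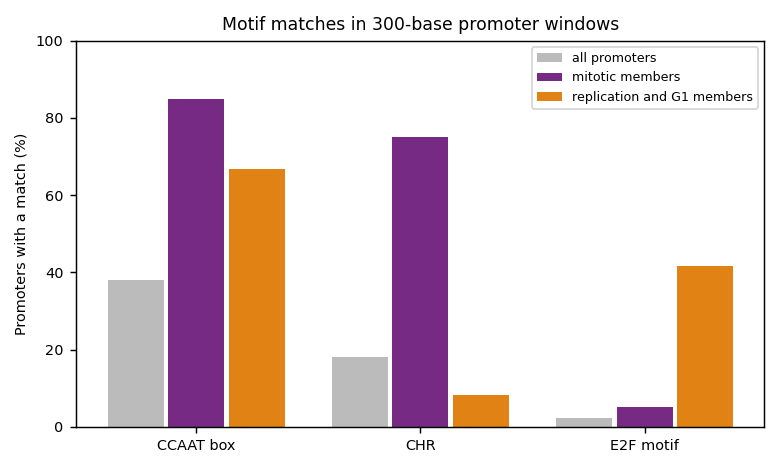
Share of promoters with at least 1 match in the 300-base window (percent, vertical axis) for the CCAAT box, the CHR and the E2F motif. Bars show 27025 RefSeq promoters, 1 for each gene symbol (grey), 20 of mitotic genes (purple) and 12 of replication and G1 genes (orange). TTTGAA is present in 75.0% of the mitotic promoters and 8.33% of the replication and G1 promoters, and the E2F motif in 5.0% and 41.7%.

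Levels are log2 values as deposited, with the same median of 6.9 on every array. Background was taken as the 95th percentile, 7.13, of 1356 probes for odorant, vomeronasal and taste receptors, whose own median was 5.99. A gene was tested when it exceeded background on at least 4 arrays, which left 9119 genes. Cardiomyocyte markers fitted the tissue label, with 6 of 6 markers that had a probe above background on all 16 arrays. Array 4 of the combination group stood apart, with a mean correlation to the other arrays of its group of 0.943 against 0.963 to 0.983 for the other 15. Atrial genes (Myl4, Myl7, Sln) averaged 7.81 to 10.55 in the combination group, 9.78 in the fourth control sample and 6.94 to 7.73 in the other 11 samples. Arrays numbered 1 and 2 and arrays numbered 3 and 4 also formed a pair of sets across all groups. Deviations from the group means correlated between arrays of different groups at a median of 0.281 for equal numbers, 0.232 for different numbers within a set and -0.258 across the sets.

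The members fell into a detected and an undetected part. Above background on all 16 arrays were 11 genes: Cdc20, Cenpa, Nusap1, Mcm4, Mcm5, Mcm6, Cdt1, Gmnn, Pcna, Rrm1 and Ccnd1. A further 8 were above background on 4 to 15 arrays, which made 19 tested members. Another 5 exceeded it on 1 to 3 arrays, and 10 on none, so 15 members had a probe but were too dim to be tested. The same filter kept 9119 of all 16593 genes with a probe, a share close to that of the members (19 of 34). The split into 2 parts therefore does not set the members apart from other genes. Just outside the filter were Cdk1, Plk1 and Ccne1 with 3 arrays each, and just inside it was Birc5 with 4. Of the 5 arrays that carried Bub1b past the filter 3 were from the combination group, and of the 5 that carried Tk1 3 were control arrays, while Mcm2 exceeded background on 2 control, 2 AngII and 1 L-NAME array.

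**Figure D2:**
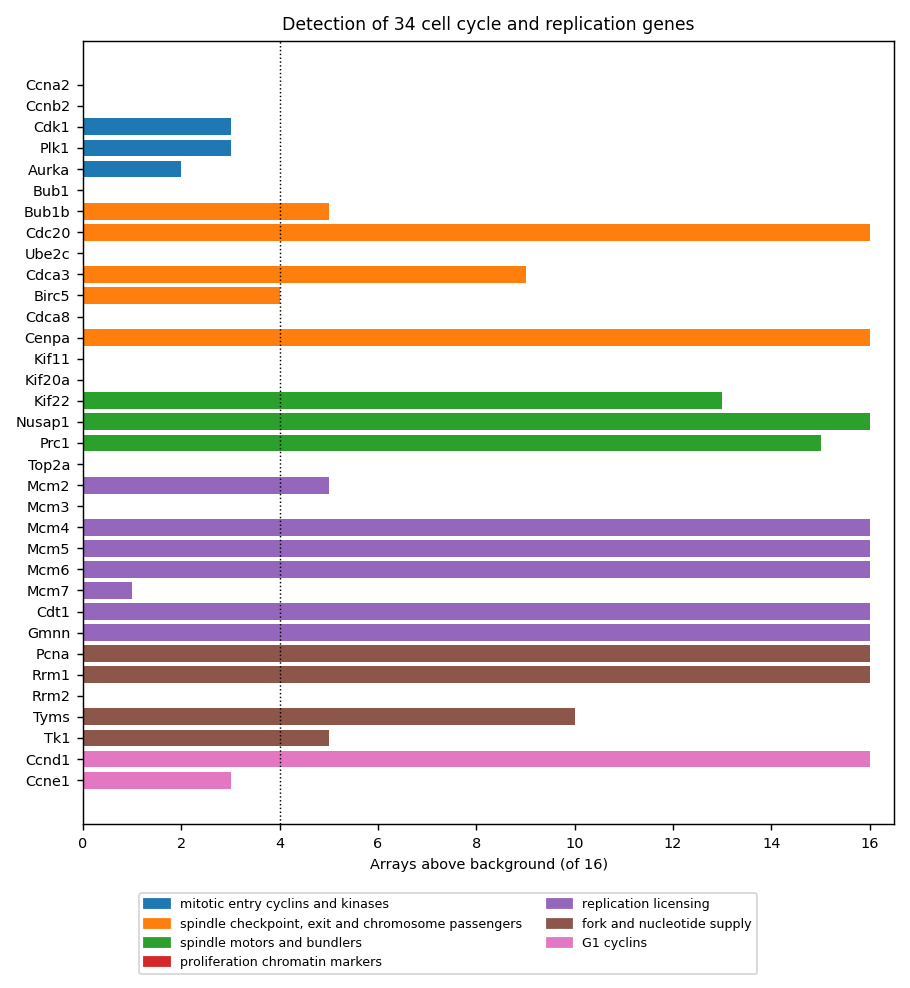
Number of arrays (of 16, horizontal axis) on which the chosen probe of each of 34 genes exceeded background, coloured by role, with the filter of 4 arrays as a dotted line. No probe used for a kinase or cyclin of mitotic entry reaches the line, while those of 5 of 8 licensing genes are above background on all 16 arrays.

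Detection is a matter of the probe as well as of the transcript. The probe used for Mcm4 was above background on all 16 arrays and the other Mcm4 probes on 0, and the other Cdc20 probes on 0, 1 and 3, so the counts by role describe the probes used. None of the 5 measured genes of mitotic entry was tested. Ccna2 (cyclin A2) ranged from 5.81 to 6.32 over the 16 arrays and Ccnb2 (cyclin B2) from 5.83 to 6.19, both below background throughout. Cdk1, the kinase these cyclins activate, ranged from 6 to 7.43, Plk1, a kinase of centrosome maturation and cytokinesis, from 6.24 to 7.34, and Aurka, the spindle pole kinase, from 6.05 to 7.58. The arrays above background were spread over groups: 1 control, 1 L-NAME and 1 combination array for Cdk1 and for Plk1, and 1 control and 1 combination array for Aurka. Top2a, the topoisomerase that untangles replicated chromosomes and a common marker of proliferating cells, was below background on all 16 arrays. Its values were 6.38, 6.38, 6.8 and 6.01 on the control arrays, 6.77, 6.36, 6.25 and 6.28 on the L-NAME arrays, 6.94, 6.44, 6.38 and 6.1 on the AngII arrays, and 7.07, 6.93, 6.34 and 5.86 on the combination arrays. The highest and the lowest Top2a value both came from the combination group, and the 4 groups overlapped. Values this close to background have no order, and no fold is given for these genes.

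The checkpoint kinase Bub1, the ubiquitin-conjugating enzyme Ube2c that works with the anaphase-promoting complex, the passenger protein Cdca8 (borealin), and the mitotic motors Kif11 and Kif20a were also below background on all 16 arrays. Among replication genes this held for Mcm3 and for Rrm2, the small subunit of ribonucleotide reductase. Mcm7 exceeded background only on control array 3, at 7.27. Ccne1 (cyclin E1) exceeded it on 3 arrays, AngII arrays 3 and 4 at 7.31 and 7.19 and L-NAME array 3 at 7.14. For the dim genes a level below background is a bound and does not show that the transcript was absent.

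Between combination and control, 0 of the 19 tested members passed limma's test at an adjusted p of 0.05, against 5.79% of all 9119 genes (528 genes, 269 higher and 259 lower). At an unadjusted p under 0.05 there were 3 members, against 21.4% of all genes. The median difference of the 19 members was -0.09 on the log2 scale, against 0 for all genes, with 8 differences above 0 and 11 below. Groups did not overlap for 1 member, Mcm2, by values that lay below background, against 12.6% of all genes. The 95% interval of the difference lay within 1 log2 unit, a 2-fold change, in either direction for 15 of the 19 members. It reached beyond that for Bub1b, Mcm2, Pcna and Tk1. Without combination array 4 the count was also 0, and with the replicate number as a block it was 0 in each of the 6 comparisons.

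Of the 8 checkpoint and passenger genes with a probe 5 were tested, and none passed. Bub1b passed the filter on low values through 3 combination arrays of 5, and Birc5 through 2 of 4. In the fit of all 16593 genes the dim members Bub1, Ube2c and Cdca8 differed from control by 0, 0.02 and 0.11 in the combination. Bub1b encodes BubR1, the checkpoint protein that restrains the anaphase-promoting complex. Its levels were 6.74, 8.15, 6.58 and 6.22 on the control arrays, 6.54, 6.55, 6.56 and 6.83 on the L-NAME arrays, 6.91, 7.18, 6.51 and 6.34 on the AngII arrays, and 7.04, 7.69, 7.58 and 8.41 on the combination arrays. As measured, control array 2 stood inside the combination range, with the other 3 control arrays and all 4 L-NAME arrays below it. Those lower arrays and combination array 1 were below background, where values have no order. The combination minus control difference was 0.76 ± 0.35 (SE), with a 95% interval from 0.01 to 1.51 and limma's adjusted p = 0.227. It was 1.17 with adjusted p = 0.0325 without control array 2, and 0.51 with adjusted p = 0.447 without combination array 4. Within arrays 1 and 2 the difference was -0.08, and within arrays 3 and 4 it was 1.6. Bub1b was below background on all L-NAME arrays and on combination array 1 (7.04), so no bound on the fold is given. With L-NAME held at background, the combination as measured was 1.47-fold higher than the L-NAME group (measured means 7.68 and 6.62, adjusted p = 0.143). These 2 groups did not overlap as measured, but their nearest values, 7.04 and 6.83, were both below background and have no order. Since the filter was passed mainly through the combination group, the Bub1b values are a description.

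Cenpa, the histone H3 variant that marks centromeres, was above background on every array. Its 1 probe had a mean of 13.34, while cardiomyocyte markers had means of 13.19 to 13.26 on the control arrays. Whether the probe of Cenpa also reads other transcripts was not tested. Its levels were 13.31, 13.45, 13.36 and 13.55 on the control arrays, 13.15, 13.26, 13.19 and 13.15 on the L-NAME arrays, 13.47, 13.36, 13.18 and 13.13 on the AngII arrays, and 13.44, 13.53, 13.39 and 13.54 on the combination arrays. The 4 L-NAME arrays lay below all control and all combination arrays, by small amounts. The difference was -0.23 ± 0.10 for L-NAME minus control (adjusted p = 0.375) and 0.28 ± 0.10 for combination minus L-NAME (95% interval 0.08 to 0.49, adjusted p = 0.156). Cdc20, the activator of the anaphase-promoting complex, had group means between 8.21 ± 0.62 (SD, n = 4) in the control group and 8.48 ± 0.23 in the combination group. Cdca3, a mitotic entry factor, had means of 7.02 ± 0.11 in control, 6.83 ± 0.40 in L-NAME, 7.34 ± 0.30 in AngII and 7.31 ± 0.14 in combination arrays. All 4 combination arrays of Cdca3 were above background, array 4 only just at 7.14, against 3 AngII, 1 L-NAME and 1 control array. Combination minus control was 0.30 ± 0.18 (adjusted p = 0.378), and the other Cdca3 probe was below background on all 16 arrays. Birc5 (survivin) ranged from 6.31 to 7.6 over the 16 arrays, near background in every group.

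**Figure D3:**
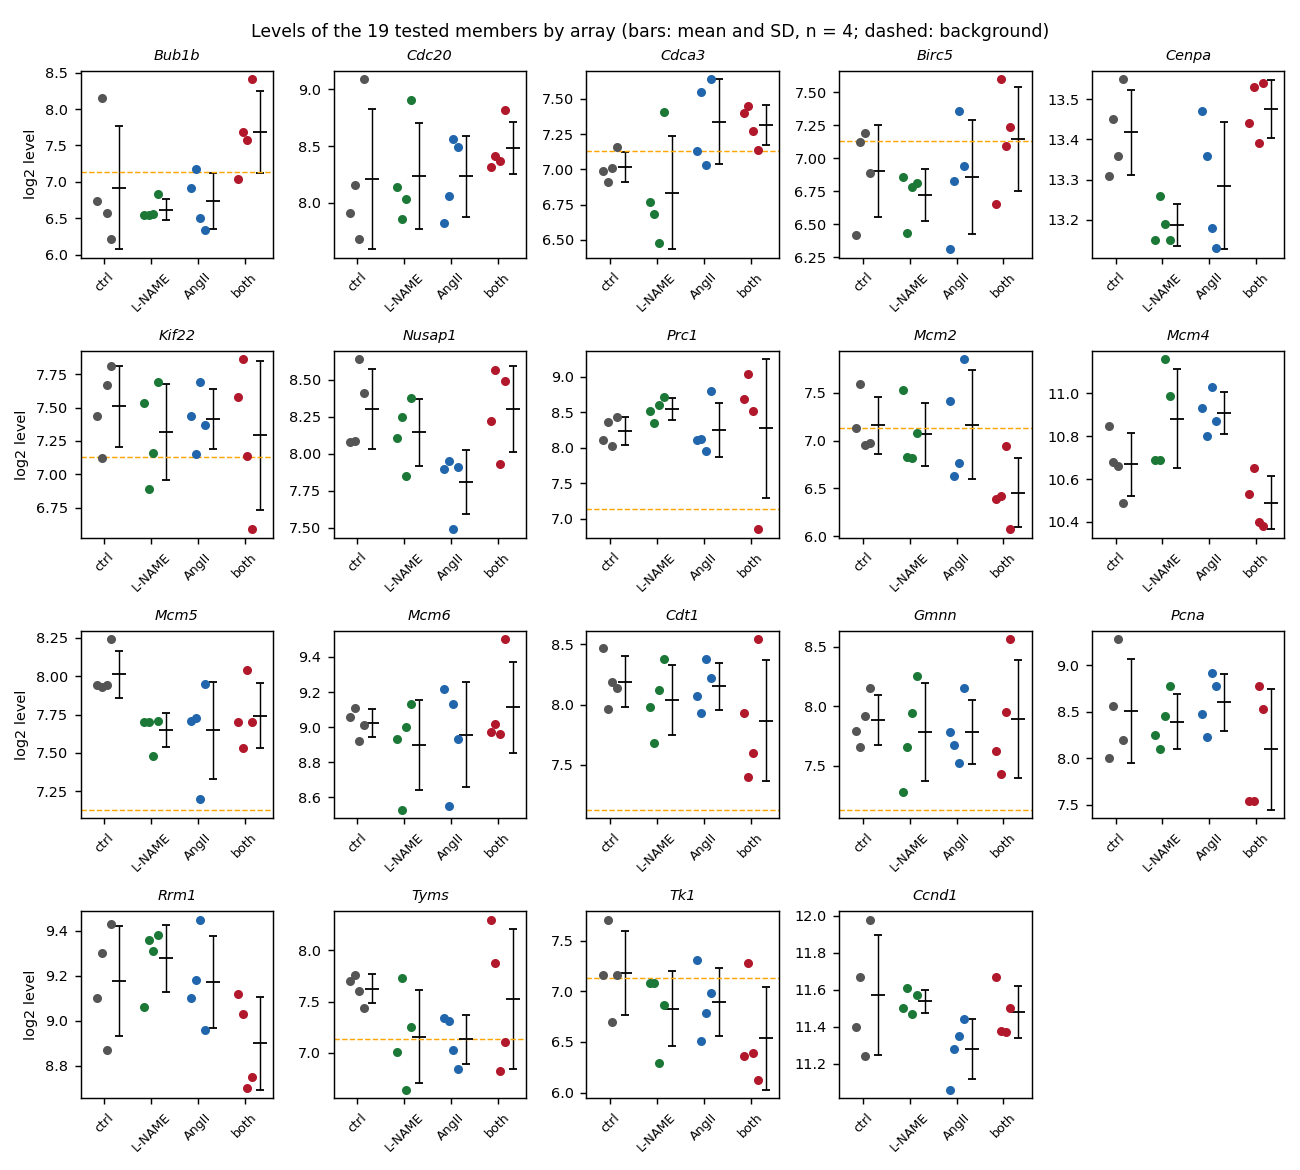
Log2 level of each of the 19 tested genes by array (points) with the mean and SD of each group of 4 (bars), on a separate vertical axis for each gene; "both" is the combination group and the dashed line is background where it falls inside the axis. Groups overlap in most panels. For Mcm2 all 4 combination arrays and 2 of the 4 control arrays lie below background.

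Among spindle motors and bundlers, Nusap1, a microtubule-bundling protein of the spindle, had lower levels on the AngII arrays. They were 7.9, 7.95, 7.49 and 7.91 in the AngII group, 8.08, 8.09, 8.64 and 8.41 in the control group, 8.11, 8.25, 7.85 and 8.38 in the L-NAME group, and 8.22, 8.57, 7.93 and 8.49 in the combination group. Every AngII array lay below every control array, and the ranges of the AngII and combination groups met between 7.93 and 7.95. AngII minus control was -0.49 ± 0.18 (95% interval -0.87 to -0.12, adjusted p = 0.208), and combination minus AngII was 0.49 ± 0.18 (adjusted p = 0.196). Within arrays 1 and 2 AngII minus control was -0.16, and within arrays 3 and 4 it was -0.83. The other probes of Nusap1 were below background. Prc1, which crosslinks the microtubules of the central spindle, was between 7.95 and 9.04 on 15 arrays and at 6.85, below background, on combination array 4. The chromosome-arm motor Kif22 was also lowest on that array, at 6.59, against 7.14 to 7.86 on the other 3 combination arrays.

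Of the 8 licensing genes 6 were tested, and their differences from control ran in both directions. Mcm2, a subunit of the replicative helicase, measured 7.13, 7.59, 6.95 and 6.97 on the control arrays, 7.53, 6.83, 6.82 and 7.08 on the L-NAME arrays, 7.41, 6.63, 6.77 and 7.85 on the AngII arrays, and 6.39, 6.42, 6.94 and 6.07 on the combination arrays. All 4 combination arrays and 2 of the 4 control arrays were below background. The nearest values of these groups, 6.94 and 6.95, have no order there. The measured means were 7.16 in the control and 6.46 in the combination group, with limma's adjusted p = 0.133. With the combination held at background, the control as measured was 1.02-fold higher. This is no bound, since 2 of the 4 control arrays were below background too. Without combination array 4 the adjusted p was 0.254.

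Mcm4, another helicase subunit, had its lowest group mean in the combination. Its levels were 10.53, 10.65, 10.4 and 10.38 on the combination arrays, 10.93, 10.8, 11.03 and 10.87 on the AngII arrays, 10.69, 10.69, 11.16 and 10.99 on the L-NAME arrays, and 10.85, 10.68, 10.66 and 10.49 on the control arrays. The combination arrays lay below all 8 arrays of the single treatments and overlapped the control arrays. Combination minus AngII was -0.42 ± 0.12 (95% interval -0.68 to -0.15, unadjusted p = 0.00425, adjusted p = 0.124), and combination minus L-NAME was -0.39 ± 0.12 (adjusted p = 0.121). Against control the difference was -0.18 ± 0.12 (adjusted p = 0.442). The interaction, which is the combination minus AngII minus L-NAME plus control, was -0.63 ± 0.17 for Mcm4 (unadjusted p = 0.00262), and its adjusted p of 0.117 was the lowest of any member in any comparison. Within arrays 1 and 2 the interaction was -0.2 and combination minus L-NAME was -0.1, and within arrays 3 and 4 they were -1.06 and -0.68. The other probes of Mcm4 were below background on all arrays.

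Mcm5, also of the helicase, had its highest mean in the control group. It measured 7.94, 7.93, 7.94 and 8.24 on the control arrays, 7.7, 7.7, 7.48 and 7.71 on the L-NAME arrays, 7.71, 7.73, 7.2 and 7.95 on the AngII arrays, and 7.7, 7.53, 8.04 and 7.7 on the combination arrays. The L-NAME arrays lay below all control arrays, while 1 AngII array and 1 combination array reached into the control range. The difference from control was -0.37 ± 0.15 for L-NAME (adjusted p = 0.362) and -0.37 ± 0.15 for AngII (adjusted p = 0.279). Mcm6 had group means between 8.9 and 9.11, Gmnn (geminin, the inhibitor of Cdt1) between 7.78 and 7.89, and Cdt1, which loads the helicase, between 7.87 and 8.19. For Mcm6 the other bright probes gave combination minus control differences of 0.12 and 0.3, beside 0.09 for the probe used.

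**Figure D4:**
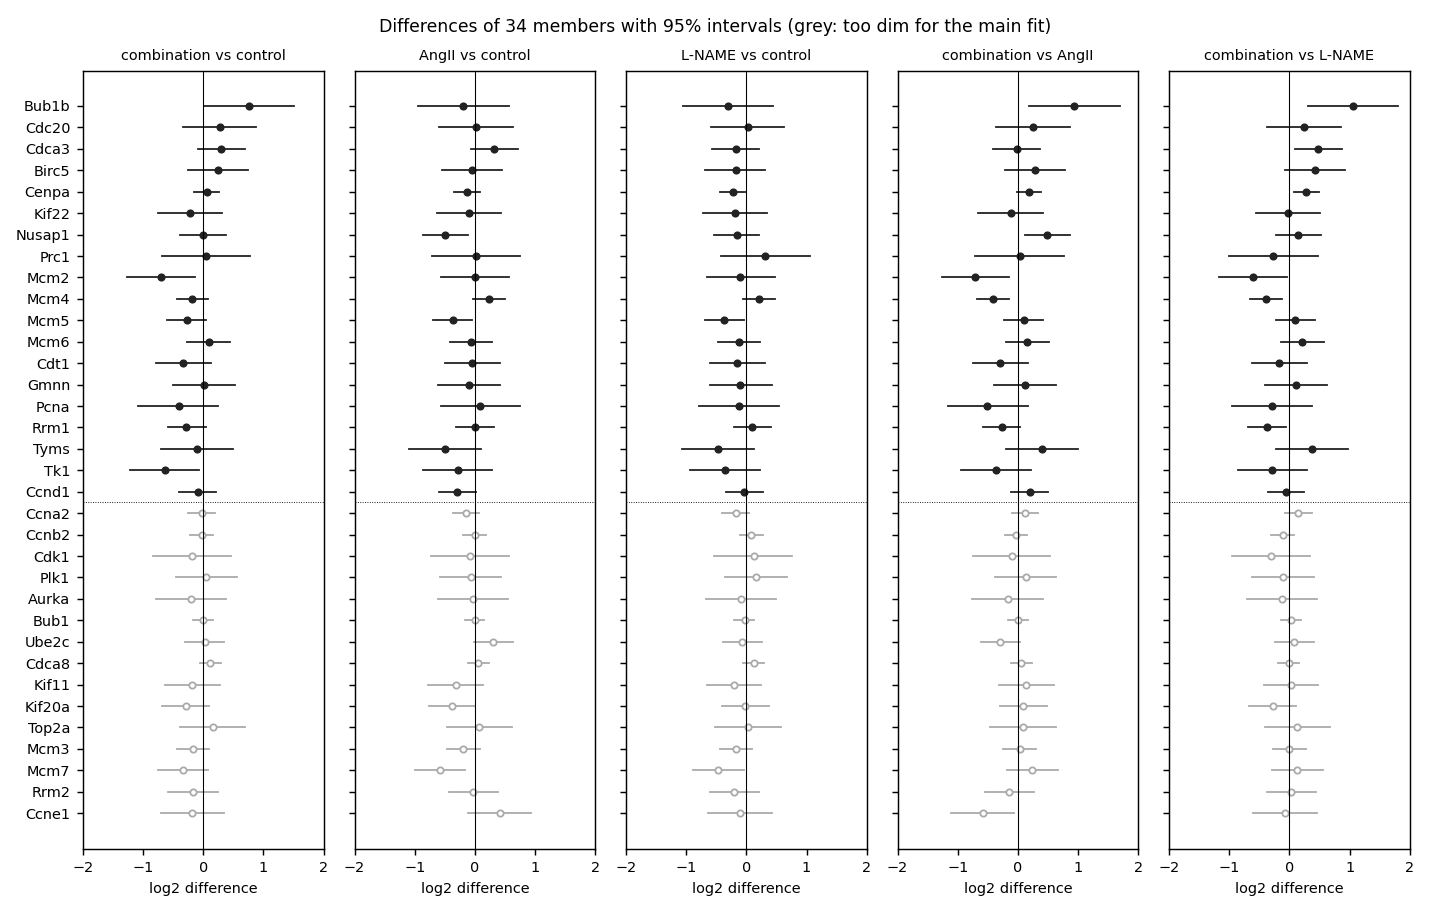
Log2 difference (horizontal axis) with its 95% interval for 34 genes in 5 comparisons of group means; black points are the 19 genes tested and grey open points the 15 that were too dim, from the fit of all 16593 genes. Most intervals cross 0 and none of the differences passed at an adjusted p of 0.05.

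Of the 5 genes of the fork and of nucleotide supply 4 were tested and 0 passed. Pcna, the sliding clamp of DNA polymerases, measured 8, 8.56, 9.28 and 8.2 on the control arrays, 8.25, 8.1, 8.45 and 8.78 on the L-NAME arrays, 8.48, 8.23, 8.92 and 8.78 on the AngII arrays, and 7.54, 7.54, 8.78 and 8.53 on the combination arrays. Combination arrays 1 and 2 were below every other array, and arrays 3 and 4 were inside the control range. The difference from control was -0.41 ± 0.31 (95% interval -1.08 to 0.25, adjusted p = 0.483). Blocking on the replicate number gave the same difference an SE of 0.22 (limma's adjusted p = 0.252). With 1 array left out it ran from -0.64 without combination array 3 to -0.16 without control array 3, and it was -0.23 without combination array 1 or 2. Within arrays 1 and 2 the Pcna difference was -0.74, and within arrays 3 and 4 it was -0.09. Tk1, the thymidine kinase of the salvage pathway, measured 7.16, 7.71, 6.7 and 7.16 on the control arrays, 7.08, 7.08, 6.29 and 6.87 on the L-NAME arrays, 7.31, 6.51, 6.79 and 6.98 on the AngII arrays, and 6.36, 7.28, 6.39 and 6.12 on the combination arrays. Combination arrays 1, 3 and 4 lay below all control arrays and array 2 lay among them. Combination arrays 1, 3 and 4 and control array 3 were all below background, where values have no order. The Tk1 difference was -0.64 ± 0.27 (adjusted p = 0.179). It was -0.89 with adjusted p = 0.049 without combination array 2, and -0.5 with adjusted p = 0.337 without combination array 4. The other Tk1 probes, above background on 1 and 2 arrays, gave -0.08 and -0.05 for combination minus control. Rrm1, the large subunit of ribonucleotide reductase, had means of 9.18 ± 0.24 in the control group and 8.9 ± 0.21 in the combination group. Tyms (thymidylate synthase) was 7.44 to 7.76 on the control arrays, all above background, and 6.84 to 7.34 on the AngII arrays, with no overlap and a difference of -0.50 ± 0.28 (adjusted p = 0.45). Its combination arrays spread from 6.82 to 8.3, and another Tyms probe above background on 4 arrays gave 0.52 for combination minus control, beside -0.10 for the probe used.

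Ccnd1 (cyclin D1), which links growth signals to the start of the cycle, was above background on all arrays. Its levels were 11.4, 11.67, 11.24 and 11.98 on the control arrays, 11.5, 11.61, 11.47 and 11.57 on the L-NAME arrays, 11.06, 11.28, 11.35 and 11.44 on the AngII arrays, and 11.67, 11.38, 11.37 and 11.5 on the combination arrays. Each treated group overlapped the control group, and control array 4 was the highest of the 16. The difference from control was -0.09 ± 0.14 for the combination (adjusted p = 0.764) and -0.29 ± 0.14 for AngII (adjusted p = 0.377). The 3 bright probes of Ccnd1 gave -0.09, -0.07 and -0.61 for the combination and -0.29, -0.41 and -0.75 for AngII, so that the size depended on the probe.

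In the remaining comparisons the test also called 0 of the 19 members. AngII against control called 0% of all genes, with 2 members at an unadjusted p under 0.05 against 14.4% of all genes. L-NAME against control called 0% of all genes too, with 2 members at an unadjusted p under 0.05 against 11.4%. At 0 calls in the whole table these counts show nothing about the members. For the combination against AngII, 0.735% of all genes (67) were called, and 4 members had an unadjusted p under 0.05 against 15.5%. For the combination against L-NAME it was 1.89% of all genes (172), with 6 members at an unadjusted p under 0.05 against 16.7%. The interaction called 0% of all genes, and 6 members had an unadjusted p under 0.05 against 16.4%. Medians of the members were -0.07 for AngII, -0.15 for L-NAME, 0.10 for the combination against AngII, 0.10 against L-NAME and 0.21 for the interaction, while those of all genes lay between -0.01 and 0.01. Groups did not overlap for 2 members in AngII against control (11.4% of all genes), 2 in L-NAME against control (10.1%), 1 in the combination against AngII (7.72%) and 3 in the combination against L-NAME (10.3%). In the last of these, Bub1b counted by values that lay below background. The comparisons share the control or the combination arrays and are not independent of each other. With the replicate number as a block, the whole-table counts were 788 for the combination against control, 386 of them higher, 56 for AngII, 172 for the combination against AngII, 262 against L-NAME and 42 for the interaction. Members at an unadjusted p under 0.05 in that fit numbered 3 for AngII and 5 for the combination against AngII. The shares of all genes there were 18.1% and 19.5%. The fit of all 16593 genes with no filter on dim genes called 0 of 34 members in each comparison. There the members at an unadjusted p under 0.05 numbered 2 for the combination against control, 3 for AngII and 3 for L-NAME. They numbered 6 for the combination against AngII, 6 against L-NAME and 7 for the interaction. Of all 16593 genes, 2426, 1726, 1395, 1769, 1864 and 1854 had such p-values, in the same order of comparisons.

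A wider list of 199 other cell cycle genes in 5 groups gave 175 with a probe and 107 tested. The list was chosen with earlier results of these data known, so its counts are a description. In the combination against control 3 of the 107 rose and 3 fell, against 2.95% and 2.84% of all genes, and 101 did not pass. With the replicate number as a block there were 10, 4 higher and 6 lower, against 788 of all 9119 genes. The median of the list was -0.06. Of 14 tested cyclin-dependent kinase inhibitors and checkpoint genes, 2 rose, 2 fell and 10 did not pass. Of 35 genes of licensing and fork, 1 fell, and of 17 genes of cohesin, condensin and cytokinesis, 1 rose. Of the 35 licensing and fork genes, 28 had differences below 0 and 7 above, with a median of -0.11. At limma's unadjusted p under 0.05 there were 7 of them, all lower. None of 17 G1 and S phase regulators or of 24 genes of mitosis, kinetochore and spindle passed. The count of 6 was 3 without control array 1, 2 without control array 3 or 4, 1 without combination array 1 and 2 without combination array 3. Stmn1 alone passed in the combination against L-NAME. None passed in AngII, L-NAME, the combination against AngII or the interaction, where 12, 9, 16 and 15 of the 107 genes had unadjusted p-values under 0.05. The shares of all genes were 14.4%, 11.4%, 15.5% and 16.4%. In the combination against control, 21 of the 107 had unadjusted p-values under 0.05, 6 higher and 15 lower. The share of all genes there was 21.4%, with 911 higher and 1038 lower.

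Cdkn1a encodes p21, an inhibitor of cyclin-dependent kinases and a p53 target. It measured 12.18, 12.05, 11.66 and 11.56 on the control arrays, 11.88, 12.43, 12.98 and 12.71 on the L-NAME arrays, 12.54, 12.59, 13.46 and 13.07 on the AngII arrays, and 13.17, 12.81, 13.47 and 12.73 on the combination arrays. All AngII and combination arrays were above all control arrays, and 1 of 4 L-NAME arrays lay inside the control range, with the other 3 above it. Cdkn1a rose 2.27-fold in the combination, from 11.86 ± 0.30 to 13.04 ± 0.34 (difference 1.18 ± 0.26 SE, adjusted p = 0.0168). For AngII the difference was 1.05 (adjusted p = 0.105) and for L-NAME 0.64 (adjusted p = 0.353). Its 3 probes gave 1.18, 1.21 and 1.05 for the combination, the last with an adjusted p of 0.0561. The adjusted p was 0.0504 without combination array 3 and 0.0129 without array 4.

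Gadd45g, a stress-induced growth arrest gene, rose 1.57-fold in the combination, from 11.89 ± 0.25 to 12.54 ± 0.18 (0.65 ± 0.16, adjusted p = 0.0337). Its control arrays were 12.26, 11.86, 11.7 and 11.74 and its combination arrays 12.79, 12.39, 12.54 and 12.44, without overlap. Leaving out control array 2, 3 or 4, or combination array 1 or 3, took the adjusted p to between 0.0672 and 0.0898. A covariate for the atrial genes took it to 0.0534, and a fit of only the compared groups to 0.0948. The other bright Gadd45g probe gave 0.78 (adjusted p = 0.097). Mdm2, the ubiquitin ligase that restrains p53 and a p53 target itself, fell from 11.92 ± 0.10 to 11.49 ± 0.12 (-0.43 ± 0.09, adjusted p = 0.0158). A second bright Mdm2 probe gave -0.18 (adjusted p = 0.517), and without combination array 1 the adjusted p was 0.0508. Chek2, a DNA damage checkpoint kinase, fell from 8.2 ± 0.33 to 7.03 ± 0.62 (-1.17 ± 0.30, adjusted p = 0.0351), with 2 of 4 combination arrays above background. A second Chek2 probe gave -0.21 (adjusted p = 0.75). Leaving out any control array but 2, or any combination array but 2, took its adjusted p to between 0.0536 and 0.0959, and without combination array 4 the difference was -0.89.

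Pold1, the catalytic subunit of DNA polymerase delta, fell from 10.07 ± 0.16 to 9.54 ± 0.12 (-0.52 ± 0.12, adjusted p = 0.0249). Its combination arrays were 9.52, 9.4, 9.56 and 9.7, all below the control arrays at 10.03, 9.86, 10.17 and 10.2. Its adjusted p was 0.0511 to 0.0684 when control array 1, 3 or 4, or any combination array but 4, was left out. Stag2, a cohesin subunit, rose from 11.04 ± 0.04 to 11.38 ± 0.03 (0.34 ± 0.09, adjusted p = 0.0414), but a second probe gave -0.14 (adjusted p = 0.728), and the call was lost in each fit without 1 array except those without AngII array 3 or 4 (adjusted p up to 0.102).

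Stmn1 (stathmin), which destabilises microtubules and is high in dividing cells, fell in the combination against L-NAME, from 8.32 ± 0.59 to 7.04 ± 0.25 (-1.28 ± 0.29, adjusted p = 0.0389). Its levels were 7.1, 7.01, 7.31 and 6.71 on the combination arrays, 7.95, 7.69, 8.93 and 8.69 on the L-NAME arrays, 7.86, 7.97, 8.81 and 8.68 on the AngII arrays, and 8.43, 7.45, 8.12 and 8.16 on the control arrays. The combination arrays lay below the 12 arrays of the other groups, and 1 of them was above background. Against control the Stmn1 difference was -1.01 (adjusted p = 0.0571) and against AngII -1.29 (adjusted p = 0.056). With the replicate number as a block, Stmn1 also passed in these other comparisons. Against L-NAME the adjusted p was 0.0506 to 0.123 when control array 3, L-NAME array 1, 3 or 4, or any combination array was left out, and 0.0806 (difference -1.48) with the atrial covariate.

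**Figure D5:**
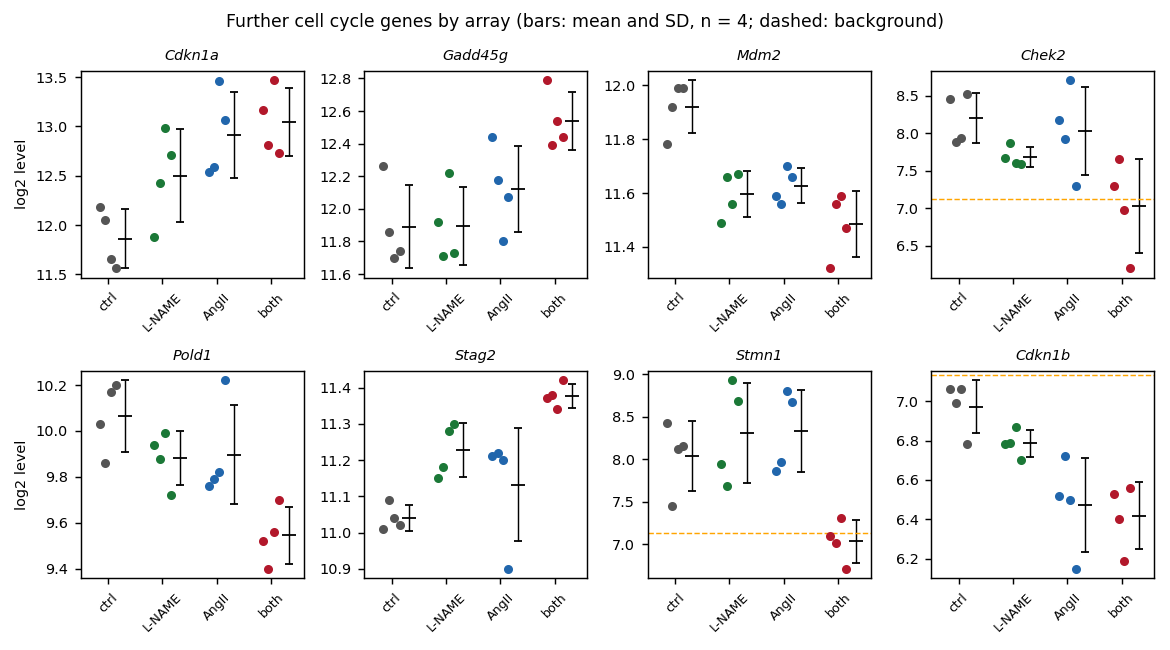
Log2 level by array (points) with the mean and SD of each group of 4 (bars) for 8 other cell cycle genes, on a separate vertical axis for each gene; "both" is the combination group and the dashed line is background. Cdkn1a and Gadd45g are higher and Mdm2, Chek2 and Pold1 lower in the combination than in the control group, and all values of the Cdkn1b probe used are below background.

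Cdkn1b (p27), an inhibitor that holds cells out of the cycle, was below background on all 16 arrays with the probe used, with means of 6.97 ± 0.13 in the control and 6.42 ± 0.17 in the combination group, and no fold is given. Its other probes exceeded background on 1 and 2 arrays. E2f1, the transcription factor of S phase genes, was above background on 3 arrays and was not tested. Cyclin D2 (Ccnd2) differed by -0.09 between combination and control (adjusted p = 0.826), cyclin D3 (Ccnd3) by 0.04 (adjusted p = 0.905) and Rb1, the retinoblastoma repressor of E2F factors, by 0.21 (adjusted p = 0.256). Without combination array 4 the Ccnd2 difference was 0.12, and the Ccnd3 difference was below 0 without control array 1 or combination array 1 or 2.

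The marker lists of other cell types were measured on the same arrays. The mean of 7 fibroblast markers was 11.3, 11.56 and 11.19 on combination arrays 1, 2 and 3, 10.16 on combination array 4, and 10.13 to 10.75 on the other 12, with 1 of 7 markers that rose and 0 that fell in the combination against control. Smooth muscle markers had means of 9.36, 9.59 and 9.53 on combination arrays 1, 2 and 3 and 8.86 on array 4. Their means were 8.96 to 9.1 in the control, 9.25 to 9.6 in the L-NAME and 9.23 to 9.64 in the AngII group. In the combination against control 1 of 3 tested markers rose, with a median difference of 0.42. Endothelial markers had means of 10.25 to 10.95 in the combination and 10.45 to 10.63 in the control group, with 0 of 7 called. Macrophage markers had means of 10.11 to 10.62 in the combination and 10.26 to 10.49 in the control group, with 1 of 7 that rose. Of 8 lymphocyte markers with a probe, 5 were above background on no array. The mean of the erythroid markers was 13.21 on combination array 4 and 10.71 to 11.79 on the other 15 arrays, which include combination arrays 1 to 3. The part of these cell types in the values of the cell cycle genes was not tested.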

How the data were processed

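Left ventricular RNA of 16 mouse samples was hybridised to Illumina BeadChips. RNA was isolated, per the labels' protocols, with Trizol, cleaned on RNeasy columns and labelled as biotinylated cRNA (Ambion). Per the submitters' processing notes, GenomeStudio and lumi were used. The values are log2 levels as deposited by the authors for 25697 probes. After sorting, no pair of columns differed by more than 0.00132, which is the mark of quantile normalisation by the authors. Neither the transform nor any background subtraction is stated in the sources used here, and these would change differences of dim genes most. Another table, of 64 columns, was left out since no label matches its column names.

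Symbols came from the platform annotation (23978 probes with a symbol, 1719 without). The filter kept 13020 probes and the brightest stood for each of 9119 genes. limma fitted 4 group means over 16 arrays (12 residual and 3.15 prior degrees of freedom) with Benjamini-Hochberg adjustment over all genes at 0.05, for 6 comparisons. For a group with every array below background, a fold is set against the higher of background and the value on each array. The other group is taken as measured, so the fold is no bound where that group also has arrays below background. Full values are given for the 3 members with the smallest p in each comparison and for Top2a, Pcna and Ccnd1. Of the wider list, genes that passed and Cdkn1a, Cdkn1b, Ccnd2, Ccnd3, E2f1 and Rb1 are named. The members, lists and tests were chosen with earlier results of these data known. Arrays with the same replicate number in the labels deviated together in all 24 pairs (r from 0.115 to 0.452). A fit that blocks on this number is therefore given where it changed a call or a count of calls, and for Pcna. The combination against control was also tested on simulated data. Of 50 altered genes per fold among 9119, the test called 17 at 1.5-fold, 38 at 2-fold and 48 at 4-fold. In the measured data the median interval of this comparison spanned 0.38 on either side for all genes and 0.5 for the 19 members. The simulated counts therefore give no rate of recovery for the members. Whether the array sets or combination array 4 would change these counts was not tested. Alternatives were other filters and backgrounds, other variance models, array weights, blocks, the array sets alone, cyclic loess, an atrial covariate, other probes, only the compared groups, and each array left out in turn. The fits ran in R 4.3.3 with limma 3.58.1 and the data.table package (1.17.8), the rest in Python 3.11.15, pandas 2.3.3 and matplotlib 3.10.9.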

Additional observations from a re-analysis of the deposited data

Results flagged for a closer look

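For 29 genes the 4 arrays of each group were searched for 1 array far from the other 3, judged by Dixon's test on the gap to the nearest value over the whole range. Chance alone flags about 1 in 20 groups, and 9 of 116 groups were flagged, 6 of them in members. Among the members, Bub1b was at 6.83 on L-NAME array 4 and at 6.54 to 6.56 on the other 3. Cdc20 was at 8.82 on combination array 4, against 8.32 to 8.41. Nusap1 was at 7.49 on AngII array 3, against 7.9 to 7.95. Mcm5 was at 8.24 on control array 4, against 7.93 to 7.94, and at 7.48 on L-NAME array 3, against 7.7 to 7.71. Mcm6 was at 9.5 on combination array 4, against 8.96 to 9.02. Among the wider list, AngII array 4 had Pold1 at 10.22 (others 9.76 to 9.82) and Stag2 at 10.9 (others 11.2 to 11.22), and Ccnd2 was at 11 on L-NAME array 2 (others 11.35 to 11.4).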

How the results depend on the processing

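The count of members called was 0 in all 6 comparisons under every alternative that kept all 16 arrays or 1 set of arrays. It ranged from 0 to 1 for the combination against control when 1 array was left out (Bub1b without control array 2, Tk1 without combination array 2), and was 0 to 0 in the other comparisons. The wider list gave 1 to 8 calls for the combination against control when 1 array was left out, 0 to 1 for AngII against control, 0 to 1 for the combination against AngII, 0 to 1 against L-NAME, and 0 to 0 for L-NAME against control and the interaction. For the combination against control the list gave 10 calls with a trended robust variance, 12 with array weights, 10 with the replicate block, 11 with the array set block, 2 and 0 within arrays 1 and 2 and arrays 3 and 4, and 1 with only the compared groups, against 6. Of all genes, the replicate block called 788, the array set block 834, and the fits within the sets 276 and 0, against 528. For AngII against control the list gave 2 with a trended variance, 1 with array weights and 1 with the array set block, against 0. The combination against AngII gave 1 with at least 8 arrays above background, a 99th percentile background, a trended variance, array weights, the replicate block and the array set block, against 0. Against L-NAME the list gave 0 with no filter, within either set, with the atrial covariate and with only the compared groups, 2 with the 99th percentile, a trended variance, the replicate block and the array set block, and 4 with array weights, against 1. The interaction gave 1 with a trended variance, array weights and the array set block, against 0. The cause of these changes was not tested, except that fits of fewer arrays have fewer samples. The replicate block changed no other call of a member. Differences that changed sign were Bub1b at -0.08 within arrays 1 and 2 (combination against control), Mcm4 at -0.07 there (L-NAME against control), Ccnd1 at 0 with array weights and from -0.2 to 0.04 (the latter without control array 4) with 1 array left out, Stag2 at -0.14 with its other probe, Ccnd2 at 0.19 with array weights, 0.24 within arrays 1 and 2 and from -0.21 to 0.12 (the latter without combination array 4) with 1 array left out, and Ccnd3 at -0.09 within arrays 3 and 4 and from -0.03 (without control array 1 or combination array 2) to 0.12 with 1 array left out, with -0.01 without combination array 1. Precision is limited by 4 arrays a group: the median 95% interval of a member spanned 0.50 on either side of its difference. Levels at background are bounds, and 15 of 34 members could not be tested.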
